A study of Homo sapiens and Mus musculus with 27 samples.

Results

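The transcriptional responses of 2 human breast cancer cell lines to TM-containing treatments were compared gene by gene. The difference of differences was used: the change of MDA-MB-231 given bortezomib and TM minus its vehicle, less the change of HCC1937 given TM minus its vehicle. It rests on 12 of the 27 libraries of the study, which form 4 groups of 3 replicates: MDA-MB-231 with 10 nM bortezomib and 10 µM TM, MDA-MB-231 with vehicle, HCC1937 with 10 µM TM, and HCC1937 with vehicle. Each group is a culture of 1 line, and both lines are known as triple negative. What TM stands for is not spelled out in the labels. No HCC1937 library received bortezomib and no MDA-MB-231 library received TM or bortezomib alone, so bortezomib and cell line cannot be told apart in any difference given here. The labels call the replicates biological but do not say whether they came from separate cultures, so a p-value here reflects library-to-library spread, which may be technical. RNA was bulk poly(A) RNA, in which fewer cells of a kind and less RNA per cell cannot be told apart.

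Bortezomib blocks the catalytic core of the proteasome, the complex that degrades ubiquitin-tagged proteins. Cells with a blocked proteasome are known to accumulate misfolded proteins and to switch on several programmes: HSF1 drives heat shock chaperones, ATF4 drives amino acid supply and CHOP-dependent genes, NFE2L1 drives new proteasome subunits, and NRF2 drives antioxidant enzymes. Growth factor signalling through ERK and through SMAD proteins is read out by its own feedback inhibitors, among them the Sprouty and DUSP families for ERK and SMAD6, SMAD7 and the ID proteins for the BMP and TGF-beta branches.

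The genes below were placed in classes. A gene moved alike when it was called in both lines in the same direction, and in opposite ways when it was called in both with opposite signs. It moved in MDA-MB-231 only or in HCC1937 only when it was called in that line, was not called in the other, and the difference between the responses was itself called. A call is an adjusted p under 0.05 in the quasi-likelihood test of edgeR with Benjamini-Hochberg adjustment over all 20750 tested genes, in a fit of the 12 libraries together. Classes were read over the 11685 tested genes that reached 1 CPM (a count scaled to library size and TMM factor) in at least 1 group of each line. Log2 changes are treated minus vehicle within a line, and a positive difference means a higher response in MDA-MB-231. The leading genes of each class were picked with treated and vehicle libraries apart in each line that moved. In the classes of 1 line only they also had a log2 change under 0.3 in the other line. For these genes both traits were required and are not results.

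The promoters of 6 genes are shown because they stand for the classes and because each holds a motif of a factor named above or of AP-1, the FOS and JUN dimer. They come from the RefSeq promoter table on GRCh38.p14, run 5′ to 3′ on the strand of the gene from 250 bases before its start to 50 after it, and carry the motif in capitals. On both strands were searched the heat shock element (3 alternating blocks of its core letters), the ER stress element (a CCAAT box spaced from CCACG), TGACNNNGC (the antioxidant response element, bound by NRF2 and NFE2L1), TGATGNAA (the composite element of ATF4) and TGANTCA (AP-1). HSPA8 and CHORDC1 moved in opposite ways, HSPA5 and PSMC4 in MDA-MB-231 only, ATF3 alike and IL11 in HCC1937 only. The lines below give HSPA8 (chr11:123062087-123062386, minus strand, heat shock element), CHORDC1 (chr11:90223000-90223299, minus strand, 3 overlapping heat shock elements), HSPA5 (chr9:125241294-125241593, minus strand, ER stress element), PSMC4 (chr19:39970915-39971214, plus strand, antioxidant response element on the other strand), ATF3 (chr1:212565157-212565456, plus strand, ATF4 element) and IL11 (chr19:55370414-55370713, minus strand, AP-1 element).
HSPA8: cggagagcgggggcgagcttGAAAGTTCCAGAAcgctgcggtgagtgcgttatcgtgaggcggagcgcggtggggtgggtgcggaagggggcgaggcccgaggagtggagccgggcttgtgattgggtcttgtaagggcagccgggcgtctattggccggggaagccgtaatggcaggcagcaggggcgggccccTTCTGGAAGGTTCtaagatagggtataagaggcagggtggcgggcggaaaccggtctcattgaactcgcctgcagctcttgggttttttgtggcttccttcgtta
CHORDC1: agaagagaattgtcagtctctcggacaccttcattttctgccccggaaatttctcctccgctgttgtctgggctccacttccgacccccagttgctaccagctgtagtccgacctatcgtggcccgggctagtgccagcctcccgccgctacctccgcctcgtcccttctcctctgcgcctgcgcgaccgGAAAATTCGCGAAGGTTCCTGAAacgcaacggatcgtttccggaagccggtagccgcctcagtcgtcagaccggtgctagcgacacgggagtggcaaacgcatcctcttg
HSPA5: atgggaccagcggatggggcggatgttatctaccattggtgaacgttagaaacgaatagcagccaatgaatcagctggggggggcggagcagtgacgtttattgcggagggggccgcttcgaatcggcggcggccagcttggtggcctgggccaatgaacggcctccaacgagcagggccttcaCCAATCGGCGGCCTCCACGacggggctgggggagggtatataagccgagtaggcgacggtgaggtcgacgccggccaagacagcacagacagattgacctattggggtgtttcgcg
PSMC4: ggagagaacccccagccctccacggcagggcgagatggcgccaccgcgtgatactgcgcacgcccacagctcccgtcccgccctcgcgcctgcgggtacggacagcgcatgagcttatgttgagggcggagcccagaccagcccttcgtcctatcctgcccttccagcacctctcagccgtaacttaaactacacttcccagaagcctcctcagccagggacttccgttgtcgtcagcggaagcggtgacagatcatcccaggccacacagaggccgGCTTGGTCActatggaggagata
ATF3: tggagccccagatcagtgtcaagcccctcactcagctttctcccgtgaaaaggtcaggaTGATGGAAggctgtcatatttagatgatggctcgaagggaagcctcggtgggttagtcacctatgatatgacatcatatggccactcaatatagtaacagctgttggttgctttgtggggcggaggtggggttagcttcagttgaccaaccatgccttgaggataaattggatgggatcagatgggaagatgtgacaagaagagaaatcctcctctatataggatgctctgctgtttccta
IL11: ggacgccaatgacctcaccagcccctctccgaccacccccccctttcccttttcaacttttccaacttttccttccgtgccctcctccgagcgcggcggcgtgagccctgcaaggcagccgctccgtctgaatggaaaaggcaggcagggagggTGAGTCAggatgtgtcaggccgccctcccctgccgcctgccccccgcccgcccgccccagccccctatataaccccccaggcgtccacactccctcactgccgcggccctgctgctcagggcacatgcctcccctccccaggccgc

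The heat shock elements of HSPA8 span bases -230 to -218 and -55 to -43, and those of CHORDC1 span -60 to -38. The ER stress element of HSPA5 spans -66 to -48, the antioxidant element of PSMC4 lies after the start at 28 to 36, the ATF4 element of ATF3 spans -191 to -184 and the AP-1 element of IL11 spans -96 to -90. Such letters were rare in some cases and common in others. Of all 27305 promoters of this length, 0.487% held the heat shock element, 0.0806% the ER stress element, 3.67% the ATF4 element, 7.76% the AP-1 element and 13.6% the antioxidant element. A match describes the letters and is no proof of binding.

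The 6 MDA-MB-231 libraries held between 41808815 and 50283398 counts, and the 6 HCC1937 libraries between 38189932 and 43973262. Mitochondrial genes took 2.668% to 4.063% of counts in MDA-MB-231 and 11.078% to 11.63% in HCC1937, and the first axis of a multidimensional scaling plot parted the lines. Replicates varied more in MDA-MB-231, with a common biological coefficient of variation of 0.2096 against 0.07218 in HCC1937 when each line was fitted alone and 0.1632 together. The labels of the lines were checked against markers. MDA-MB-231 libraries held VIM (1164 CPM with bortezomib and TM, 1169 CPM with vehicle) and almost no CDH1 (0 and 0.0294 CPM), as that mesenchymal line is known to do. The libraries labelled HCC1937, a line known as basal epithelial, held KRT8 (1205 CPM with TM, 1514 CPM with vehicle) and KRT18 (365 and 529.1 CPM), but KRT5, KRT6B, TP63, EPCAM, GRHL2 and ESRP1 were at or near 0 and CDH1 was 1.301 CPM with TM and 0.5391 CPM with vehicle. Only KRT17 of 6 basal markers reached 1 CPM there. Summed over 7 general epithelial markers, vehicle libraries held 2000 to 2070 CPM in HCC1937 and 646 to 831 CPM in MDA-MB-231, with 2 and 4 markers at 1 CPM or more. KRT19 had 0.0546 and 150 CPM. A sum over 6 mesenchymal markers was 523 to 544 and 1260 to 1330 CPM. KRT5, KRT6B, TP63, EPCAM, GRHL2, ESRP1 and CDH1 thus go against the epithelial side of the HCC1937 label, while KRT8 and KRT18 do not. HCC1937 is used below as the name the libraries carry. PTPRC and CD3E, which mark leukocytes, averaged 0.0412 CPM or less in every group.

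The difference between the responses was called for 7325 of 20750 genes (35.3%), with 3732 higher (18%) and 3593 lower (17.3%) in MDA-MB-231. In MDA-MB-231 itself 9798 genes were called (47.2%), 4831 higher (23.3%) and 4967 lower (23.9%), and in HCC1937 3401 (16.4%), 1738 higher (8.38%) and 1663 lower (8.01%). Counts of list members below are read against these shares, which differ between the lines. Among the 11685 genes present in both lines the median absolute log2 change was 0.625 in MDA-MB-231 and 0.243 in HCC1937. With library totals in place of TMM scaling the difference had 1607 genes higher and 6645 lower, and the median difference shifted by -0.544 on the log2 scale, of which -0.499 came from MDA-MB-231. TMM factors were 0.6438 to 0.7416 in MDA-MB-231 with bortezomib and TM, 0.9283 to 0.9991 in its vehicle, and 1.205 to 1.261 in HCC1937. All log2 values are therefore changes relative to the bulk of genes.

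Of the genes present in both lines 1364 moved alike (11.7%), 639 in opposite ways (5.47%), 4132 in MDA-MB-231 only (35.4%) and 449 in HCC1937 only (3.84%). The alike genes split into 653 higher (5.59%) and 711 lower (6.08%). Their change was larger in MDA-MB-231 for 540 and larger in HCC1937 for 56, and for the other 768 the difference was not called. Opposite movement was near even, with 321 genes higher in MDA-MB-231 and lower in HCC1937 (2.75%) and 318 the other way (2.72%). A further 1508 genes were called in MDA-MB-231 alone and 273 in HCC1937 alone without a called difference, and they are in no class. Across the 11685 genes the log2 changes of the lines had a Pearson r of 0.238, given as a description, since genes are not independent replicates and share libraries.

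**Figure D1:**
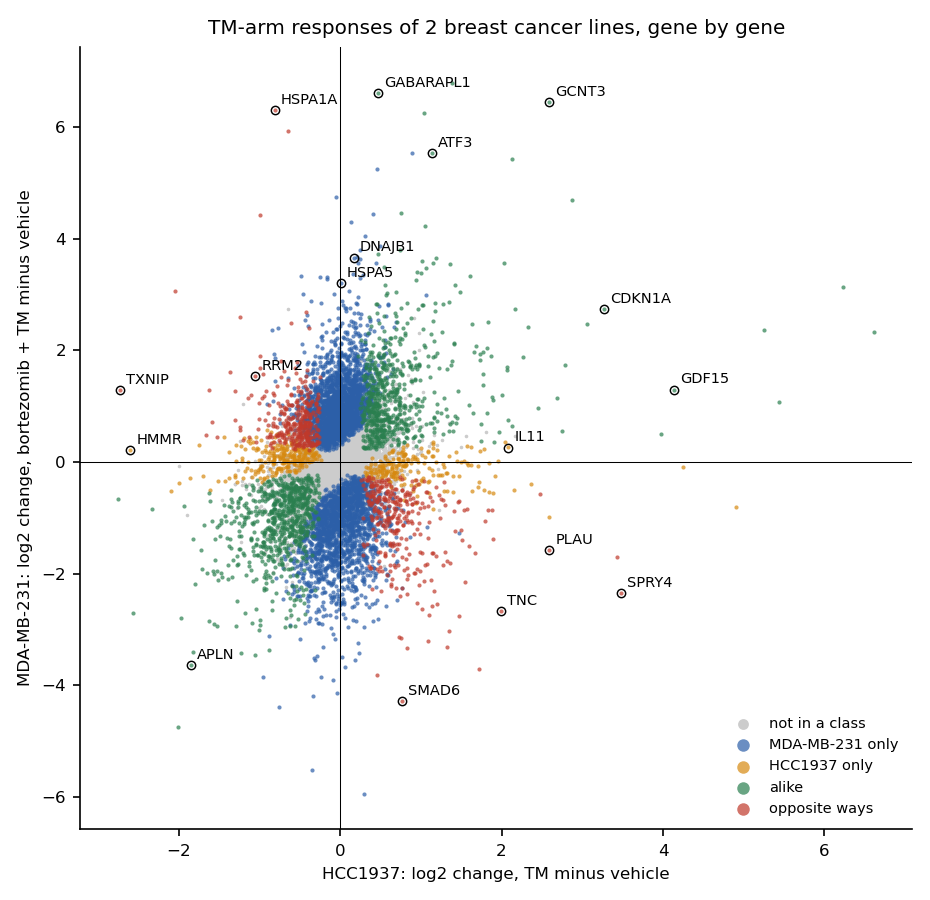
Each point is 1 of the genes present in both lines, with its log2 change in HCC1937 (TM minus vehicle) across and in MDA-MB-231 (bortezomib and TM minus vehicle) upward, coloured by class. HSPA1A, TXNIP and RRM2 lie above and left of the origin, SPRY4, PLAU, TNC and SMAD6 below and right of it, and CDKN1A, GDF15, ATF3 and GCNT3 in the upper right.

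The sizes of the classes depended on how the spread was modelled. The within-line calls were also made with each line fitted alone, so that each line had its own spread. Adjustment was then over 16152 genes in MDA-MB-231 and 18624 in HCC1937. The call of the difference was kept from the fit of the 12 libraries together. HCC1937 then had 8336 called genes and MDA-MB-231 8135. By these calls 2640 genes moved alike, 1312 in opposite ways, 2219 in MDA-MB-231 only and 910 in HCC1937 only. Of the 4132 MDA-MB-231 only genes, 2217 kept their class, as did 444 of the 449 HCC1937 only genes, with the difference call unchanged by design. A limma-voom fit with weights per line, added after the data were seen, gave 2295, 1134, 2854 and 786 in the same order. At a change of at least 2-fold in every line that counts as moved the classes held 161, 46, 1850 and 88 genes. Leaving out any of the 6 HCC1937 libraries lowered the HCC1937 calls to between 2152 and 2264 and the opposite class to between 383 and 402, and leaving out replicate 3 of MDA-MB-231 with bortezomib and TM raised the opposite class to 984.

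**Figure D2:**
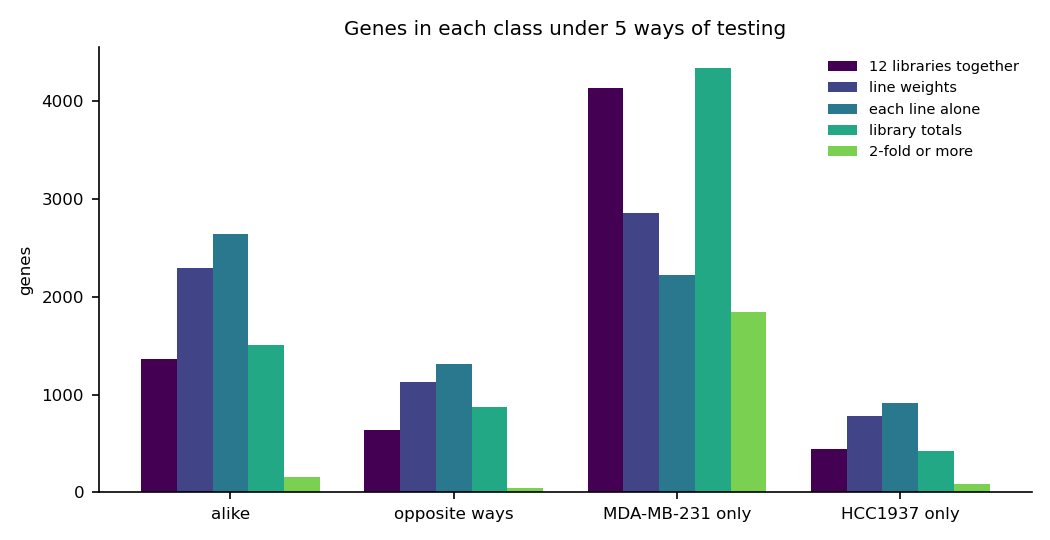
Bars give the number of genes in each class (vertical axis, genes, from 0) under 5 ways of testing. MDA-MB-231 only is the tallest class with the 12 libraries fitted together (4132), while alike (2640) passes it (2219) when each line is fitted alone. In the latter only the within-line calls were refitted.

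Genes that moved alike. The cell cycle inhibitor CDKN1A rose in both lines, as did 9 of 17 genes of the ATF4 and CHOP list, 8 of 17 p53 targets and 7 of 17 AP-1 and immediate early genes (against 5.59% of the genes present in both lines), and among the falls were HEXIM1, which restrains transcription elongation through P-TEFb, and APLN, a peptide ligand of the apelin receptor. CDKN1A, the CDK inhibitor p21, had 480, 446 and 353 CPM in MDA-MB-231 with bortezomib and TM, against 62.1, 72 and 57.3 CPM in its vehicle, and 366, 395 and 372 CPM in HCC1937 with TM, against 37.5, 39.8 and 40.5 CPM in its vehicle. Treated and vehicle libraries did not overlap in either line, and the treated levels of the lines lay close together. The log2 changes were 2.74 ± 0.12 (SE) in MDA-MB-231 and 3.27 ± 0.12 in HCC1937, and the difference of -0.53 ± 0.16 was called (adjusted p = 0.0168, edgeR quasi-likelihood test). It is thus a gene whose rise was the larger in HCC1937.

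Of 17 tested members of the ATF4 and CHOP list, 16 rose in MDA-MB-231 (against 23.3% of all genes) and 11 in HCC1937 (against 8.38%), with median log2 changes of 2.44 and 0.54 and none lower in either line. The medians over all tested genes were -0.012 and 0.001. ATF3, a stress-induced bZIP factor whose promoter is shown above with an ATF4 element, had 240, 230 and 187 CPM in MDA-MB-231 with bortezomib and TM, against 5.12, 4.93 and 4.07 CPM in its vehicle, and 63.4, 63 and 59.8 CPM in HCC1937 with TM, against 26.5, 29.1 and 28.7 CPM in its vehicle. Every treated library lay above every vehicle library of its line, by a wider margin in MDA-MB-231 (difference 4.4 ± 0.17, adjusted p = 1.38e-10, edgeR). SESN2, which restrains mTORC1, rose by 3.56 in MDA-MB-231 and by 1.15 in HCC1937, and DDIT3, which encodes CHOP, by 2.49 and 0.83. Among the 6 members not called in HCC1937, DDIT4, another mTORC1 inhibitor, had log2 changes of 3.31 in MDA-MB-231 and -0.25 ± 0.12 in HCC1937 (adjusted p = 0.165), and SLC3A2, the heavy chain of the leucine and cystine carriers, had 2.77 and -0.02 ± 0.09 (adjusted p = 0.91).

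Of 17 p53 target genes 10 were higher and 1 lower in MDA-MB-231 (against 23.3% and 23.9% of all genes), and 14 higher and none lower in HCC1937 (against 8.38% and 8.01%), with medians of 0.88 and 0.8. In the difference 5 were higher and 6 lower (against 18% and 17.3%). GDF15, a stress cytokine, had 13.3, 13.2 and 8.8 CPM in MDA-MB-231 with bortezomib and TM, against 4.56, 5.64 and 4.07 CPM in its vehicle, and 514, 542 and 521 CPM in HCC1937 with TM, against 30.9, 27.7 and 30.7 CPM in its vehicle. The groups stood apart in both lines, and HCC1937 showed the larger rise (difference -2.84 ± 0.2, adjusted p = 8.27e-08, edgeR). GADD45A, a growth arrest gene, went the other way, with a rise of 3.54 in MDA-MB-231 and of 1.36 in HCC1937 (difference 2.18 ± 0.11, adjusted p = 3.12e-09). BBC3, which encodes the death activator PUMA, rose by 2.87 and 1.35. The list is named for where its genes were catalogued, and p53 activity was not measured.

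Of 17 AP-1 and immediate early genes 10 were higher and 2 lower in MDA-MB-231 (against 23.3% and 23.9% of all genes). In HCC1937 12 were higher and 1 lower (against 8.38% and 8.01%), and in the difference 7 were higher and 6 lower (against 18% and 17.3%). EGR1, a growth factor induced zinc finger factor, rose by 3.17 in MDA-MB-231 and by 1.42 in HCC1937, and FOS by 3.72 and 0.47. The FOS rise in HCC1937 lost its call without any one of the 6 HCC1937 libraries (log2 changes of 0.4 to 0.5). Of the genes named for the smaller of their changes, CCL26, an eosinophil chemokine, had log2 changes of 4.7 and 2.87, GCNT3, a mucin-type glycan branching enzyme, 6.45 and 2.59, and CRISPLD2, a secreted glycoprotein, 2.48 and 3.06. Vehicle means were as low as 0.37 CPM in MDA-MB-231 and 0.458 CPM in HCC1937 for CCL26. They were 0.0844 CPM in MDA-MB-231 for GCNT3 and 0.509 CPM in HCC1937 for CRISPLD2, and folds from such levels are poorly fixed. RASD1, a small GTPase, had 183, 169 and 139 CPM in MDA-MB-231 with bortezomib and TM, against 29.3, 33.1 and 29.5 CPM in its vehicle, and 1.5, 2.95 and 1.14 CPM in HCC1937 with TM, against 0.297, 0.354 and 0.445 CPM in its vehicle. The groups did not overlap in either line, and the difference of 0.1 ± 0.45 was not called (adjusted p = 0.934), which leaves room for a sizeable difference at so low a level in HCC1937. CCN2 and ANKRD1, both YAP and TEAD targets, also rose in both, by 0.97 and 1.08 in MDA-MB-231. In HCC1937 CCN2 rose by 2.45, while ANKRD1 had 1.3 ± 0.162 CPM with TM (SD, n = 3), against 0, 0.0197 and 0.0607 CPM with vehicle, too little RNA to fix the size of its rise.

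Falls in both lines included TRIM66, a bromodomain protein (-2.79 in MDA-MB-231, -1.97 in HCC1937), SLITRK5, a synaptic adhesion protein (-3.4 and -1.82), and TMEM187, a membrane protein of unknown role (-2.18 and -1.8). APLN had 0.742, 0.815 and 1.32 CPM in MDA-MB-231 with bortezomib and TM, against 11.5, 14.9 and 9.99 CPM in its vehicle, and 0.817, 0.337 and 0.451 CPM in HCC1937 with TM, against 2.08, 1.67 and 2.1 CPM in its vehicle. HEXIM1 had 2.72, 1.77 and 2.56 CPM in MDA-MB-231 with bortezomib and TM, against 9.97, 7.53 and 10.7 CPM in its vehicle, and 2.45, 2.32 and 3.09 CPM in HCC1937 with TM, against 8.26, 8.49 and 7.85 CPM in its vehicle. Both genes were low in every treated library, with no overlap, and HEXIM1 fell by 1.99 and 1.64 with a difference of -0.35 ± 0.28 that was not called (adjusted p = 0.364). SLC31A1, the high-affinity copper importer, rose by 0.96 and 0.67, with 107, 105 and 97.3 CPM in MDA-MB-231 with bortezomib and TM, against 51.4, 50.7 and 57 CPM in its vehicle, and 106, 103 and 102 CPM in HCC1937 with TM, against 64.1, 64.1 and 66.9 CPM in its vehicle. Its difference of 0.28 ± 0.12 was not called (adjusted p = 0.0853). Of 15 tested copper handling genes, this one included, 4 were higher and 4 lower in MDA-MB-231 and 2 higher and 1 lower in HCC1937, near the shares of all genes (23.3%, 23.9%, 8.38% and 8.01%).

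**Figure D3:**
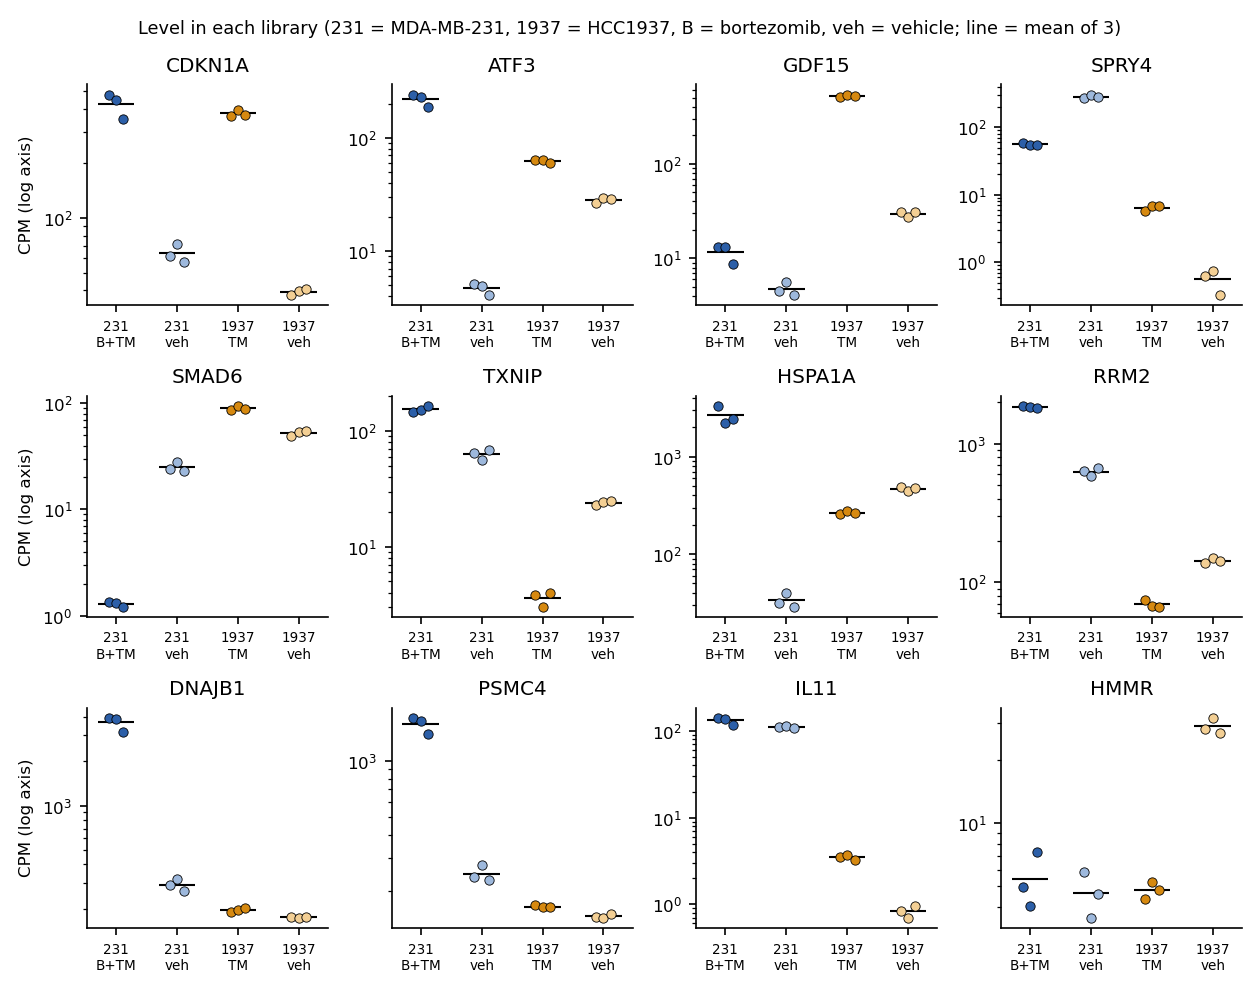
Points give the TMM-scaled level (CPM, log axis) of 12 genes in each of the 12 libraries, and lines the mean of 3 replicates, with the treated group left of its vehicle in each line. CDKN1A reaches similar treated levels in both lines, SPRY4 and SMAD6 are low in treated MDA-MB-231 and high in treated HCC1937, and TXNIP, HSPA1A and RRM2 show the reverse.

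Genes lower in MDA-MB-231 and higher in HCC1937. Feedback inhibitors of growth factor and BMP signalling, a transcription factor of the AP-1 family and secreted proteins of the pericellular matrix fell in MDA-MB-231 and rose in HCC1937. SPRY4, a Sprouty inhibitor of the ERK pathway, had 59.1, 54.9 and 54.4 CPM in MDA-MB-231 with bortezomib and TM, against 274, 305 and 276 CPM in its vehicle, and 5.67, 6.73 and 6.82 CPM in HCC1937 with TM, against 0.635, 0.748 and 0.324 CPM in its vehicle. All treated libraries were below vehicle in MDA-MB-231 and above it in HCC1937. The log2 changes of -2.34 ± 0.14 and 3.48 ± 0.19 differed by -5.83 ± 0.23 (adjusted p = 1.6e-10, edgeR).

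ERK feedback as a list of 13 had 7 members lower and 3 higher in MDA-MB-231 (against 23.9% and 23.3% of all genes). In HCC1937 11 were higher and none lower (against 8.38% and 8.01%), and the median changes were -0.74 and 1.13. In the difference 11 were lower and 1 higher (against 17.3% and 18%). DUSP6, a cytosolic phosphatase of ERK, had 25.3, 24.9 and 36.5 CPM in MDA-MB-231 with bortezomib and TM, against 91.7, 78.7 and 97.1 CPM in its vehicle, and 3.99, 3.33 and 3.27 CPM in HCC1937 with TM, against 1.67, 1.71 and 1.44 CPM in its vehicle. DUSP4, its nuclear relative, had log2 changes of -0.86 and 1.89. The groups of both phosphatases stood apart in both lines. SPRY1 fell in MDA-MB-231 only, by 4.13, with a change of -0.04 ± 0.22 in HCC1937. DUSP1, a phosphatase of stress kinases, rose in both, by 2.07 and 1.68, and was the 1 member higher in the difference (0.39), for which it was chosen after its values were seen. ERK activity itself was not measured.

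BMP and SMAD feedback had 7 of 12 members lower and 4 higher in MDA-MB-231 (against 23.9% and 23.3% of all genes). In HCC1937 6 were higher and none lower (against 8.38% and 8.01%), and the medians within the lines were -0.93 and 0.5. In the difference 7 were lower and 1 higher (against 17.3% and 18%). SMAD6, which blocks BMP receptors and SMAD1, had 1.33, 1.31 and 1.21 CPM in MDA-MB-231 with bortezomib and TM, against 23.9, 27.7 and 23.2 CPM in its vehicle, and 86.6, 94.2 and 87.7 CPM in HCC1937 with TM, against 48.8, 53.3 and 55.3 CPM in its vehicle. No treated library reached vehicle in MDA-MB-231, and all exceeded it in HCC1937 (difference -5.05 ± 0.17, adjusted p = 3.34e-11, edgeR). ID1, an inhibitor of basic helix-loop-helix factors and a BMP target, had log2 changes of -2.26 and 0.77, SMAD7 of -0.96 and 0.66, and PMEPA1, which sequesters SMAD proteins, of -0.9 and 0.84. TGFB2, a ligand of the neighbouring branch, had -1.85 and 1.06.

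**Figure D4:**
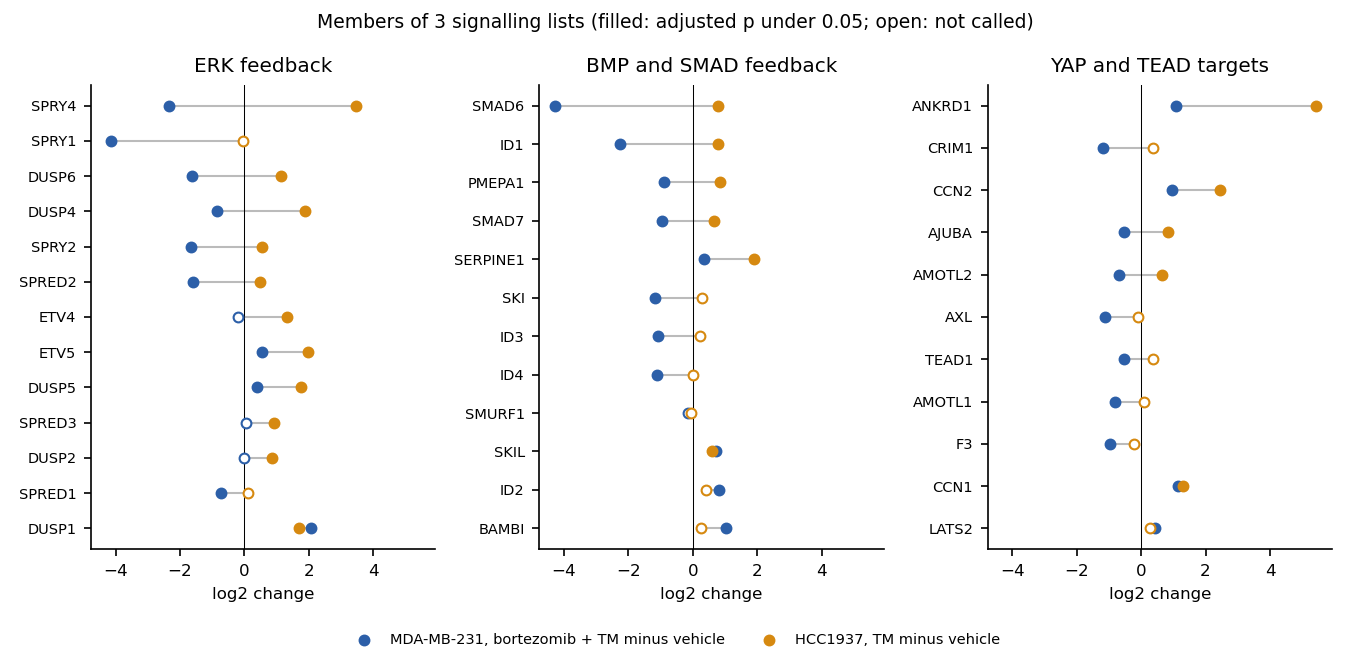
Log2 change (horizontal axis) of the tested members of 3 signalling lists (ERK feedback, BMP and SMAD feedback, YAP and TEAD targets) in MDA-MB-231 and in HCC1937, ordered by the difference, with filled points for adjusted p under 0.05. In the ERK list SPRY4, DUSP6 and DUSP4 lie left of 0 in MDA-MB-231 and right of 0 in HCC1937, as do SMAD6, ID1, PMEPA1 and SMAD7 in the BMP list.

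Matrix genes followed in part, with 9 of 17 lower and 3 higher in MDA-MB-231, 5 higher and 3 lower in HCC1937, and 11 lower and 1 higher in the difference. Over all genes 23.9% were lower and 23.3% higher in MDA-MB-231, 8.38% higher and 8.01% lower in HCC1937, and 17.3% lower and 18% higher in the difference. TNC, the matrix glycoprotein tenascin C, had 5.1, 5.84 and 6.05 CPM in MDA-MB-231 with bortezomib and TM, against 35.6, 42.9 and 30.1 CPM in its vehicle, and 2.53, 3.18 and 2.76 CPM in HCC1937 with TM, against 1.02, 0.532 and 0.587 CPM in its vehicle. PLAU, the urokinase plasminogen activator, had 94.4, 93.9 and 78.9 CPM in MDA-MB-231 with bortezomib and TM, against 259, 292 and 249 CPM in its vehicle, and 3.75, 3.61 and 4.19 CPM in HCC1937 with TM, against 0.699, 0.768 and 0.445 CPM in its vehicle. Neither gene overlapped between groups in either line, and their differences were -4.66 ± 0.31 and -4.17 ± 0.21. ADGRG1, an adhesion receptor, changed by -1.39 and 1.51, and LAMB3, a laminin chain, by -0.36 and 1.28, although its MDA-MB-231 groups overlapped. PLCH2, a phospholipase, reached only 0.927, 0.425 and 0.169 CPM in MDA-MB-231 with bortezomib and TM, against 5.2, 8.11 and 6.54 CPM in its vehicle, and 0.947, 0.991 and 1.1 CPM in HCC1937 with TM, against 0.318, 0.433 and 0.162 CPM in its vehicle. Its HCC1937 rise lost its call without vehicle replicate 3 (log2 change 1.42).

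YAP and TEAD targets had 7 of 11 members lower and the other 4 higher in MDA-MB-231 (against 23.9% and 23.3% of all genes), and 5 higher and none lower in HCC1937 (against 8.38% and 8.01%). Of them 3 were higher in both lines. AJUBA, a LIM protein that restrains LATS kinases, had log2 changes of -0.54 and 0.84. FOSL2, an AP-1 subunit, had 140, 124 and 114 CPM in MDA-MB-231 with bortezomib and TM, against 295, 323 and 273 CPM in its vehicle, and 140, 140 and 140 CPM in HCC1937 with TM, against 87.3, 84.9 and 89.8 CPM in its vehicle. BCL2L1, the survival protein BCL-XL, changed by -0.72 and 0.67 (difference -1.39 ± 0.18, adjusted p = 2.3e-05, edgeR), while BBC3 and PMAIP1 rose in both lines. COL1A1, the one fibroblast marker at 1 CPM or more of 5, changed by -1 and 0.63, and the summed level of that list ran from 5.71 to 7.54 CPM in treated MDA-MB-231, 11.3 to 15 CPM in its vehicle, 176 to 179 CPM in treated HCC1937 and 113 to 117 CPM in its vehicle. PDGFRA, DCN and LUM, which define fibroblasts, were at 0.1392 CPM or less in every group.

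Genes higher in MDA-MB-231 and lower in HCC1937. This class held inducible and constitutive HSP70 genes, enzymes of DNA synthesis, MYC, the immunoproteasome activator and the arrestin TXNIP. HSPA1A, an inducible HSP70, had 3300, 2190 and 2430 CPM in MDA-MB-231 with bortezomib and TM, against 31.5, 40 and 28.8 CPM in its vehicle, and 259, 277 and 262 CPM in HCC1937 with TM, against 482, 440 and 476 CPM in its vehicle. The treated libraries stood far above vehicle in MDA-MB-231 and below it in HCC1937 (difference 7.11 ± 0.21, adjusted p = 7.98e-12, edgeR). Its near-identical copy HSPA1B, with a difference of 6.57, may share its reads. HSPA8, the constitutive HSP70 with a pair of heat shock elements in its promoter, had 19300, 22300 and 22100 CPM in MDA-MB-231 with bortezomib and TM, against 4010, 3360 and 3880 CPM in its vehicle, and 914, 926 and 937 CPM in HCC1937 with TM, against 1400, 1420 and 1400 CPM in its vehicle. CHORDC1, an HSP90 partner with 3 such elements, changed by 1.43 and -0.47, although its fall in HCC1937 (adjusted p = 0.0437) was not called without any one of the 6 HCC1937 libraries or without replicate 1 of MDA-MB-231 vehicle (log2 changes of -0.52 to -0.43). The heat shock element stood in 4 of 268 promoters of this class (1.49%), in 0.275% of those of genes present in both lines and in 0.487% of all promoters. It stood in 6 of 1825 promoters of the genes higher in MDA-MB-231 only (0.329%). The promoters of HSPA1A, HSPA1B, DNAJB1 and HSPB8 held no match to it in the bases searched.

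TXNIP, an alpha-arrestin that binds thioredoxin and limits glucose uptake, had 146, 153 and 165 CPM in MDA-MB-231 with bortezomib and TM, against 65.1, 56 and 68.3 CPM in its vehicle, and 3.83, 3.02 and 3.99 CPM in HCC1937 with TM, against 22.8, 24.3 and 24.9 CPM in its vehicle. Groups were apart in both lines, with log2 changes of 1.29 ± 0.11 and -2.73 ± 0.13 (difference 4.02 ± 0.17, adjusted p = 3.32e-10, edgeR). RRM2, the small subunit of ribonucleotide reductase, had 1870, 1840 and 1800 CPM in MDA-MB-231 with bortezomib and TM, against 636, 589 and 665 CPM in its vehicle, and 74.4, 67.5 and 66.7 CPM in HCC1937 with TM, against 139, 149 and 143 CPM in its vehicle. MCM7, of the replicative helicase, changed by 1.38 and -0.65, and CDC45, its partner, by 1.02 and -0.6. Of 24 DNA replication and G1/S genes, 12 were higher and 4 lower in MDA-MB-231 (against 23.3% and 23.9% of all genes). In HCC1937 none were higher and 7 lower (against 8.38% and 8.01%). The medians were 0.23 in MDA-MB-231 and -0.24 in HCC1937. With library totals the MDA-MB-231 median became -0.27 and that of the difference 0.

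MYC had 310, 288 and 290 CPM in MDA-MB-231 with bortezomib and TM, against 139, 151 and 150 CPM in its vehicle, and 229, 223 and 233 CPM in HCC1937 with TM, against 380, 388 and 375 CPM in its vehicle. PSME1 and PSME2, which form the 11S activator of the immunoproteasome, changed by 0.55 and 0.5 in MDA-MB-231 and by -0.66 and -0.56 in HCC1937, and with library totals the MDA-MB-231 changes shrank to 0.04 and to less than 0.01 below 0. PSMB9, a catalytic subunit of the same particle, fell in HCC1937 only, by 1.43. PSMD8, with changes of 1.64 and -0.69, was 1 of 3 proteasome cap subunits in this class, while 15 of the 19 cap subunits rose in MDA-MB-231 only. DOK1, an adaptor that dampens tyrosine kinase signals, had 156, 155 and 104 CPM in MDA-MB-231 with bortezomib and TM, against 43.9, 51.8 and 40.3 CPM in its vehicle, and 3.9, 4.89 and 4.84 CPM in HCC1937 with TM, against 12, 11.9 and 11.1 CPM in its vehicle.

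OLMALINC, a long noncoding RNA, changed by 1.3 and -1.63, and GPR180, a membrane protein linked to TGF-beta signalling, by 1.27 and -1.3. Histone genes H2AC20 (3.06 and -2.05) and H2BC12 (1.18 and -0.95) were also in this class. Most histone mRNAs lack a poly(A) tail and near-identical copies can share reads, so poly(A) libraries count them with less certainty. H2AC20 had 28.8, 29.1 and 19.7 CPM in MDA-MB-231 with bortezomib and TM, against 2.95, 3.65 and 2.66 CPM in its vehicle, and 0.204, 0.211 and 0.325 CPM in HCC1937 with TM, against 1.29, 0.807 and 1.01 CPM in its vehicle. The groups were apart in both lines.

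The AMD3100 arms of the study, scaled here over 18 libraries and not tested, share the same vehicle groups and give the levels of these genes without TM. SPRY4 had 62.4, 71.8 and 80.4 CPM in MDA-MB-231 with bortezomib and AMD3100, and 0.902, 1.52 and 1.3 CPM in HCC1937 with AMD3100. In the same scaling it had 57.7, 53.5 and 53.3 CPM in MDA-MB-231 with bortezomib and TM and 5.47, 6.57 and 6.64 CPM in HCC1937 with TM. HSPA1A had 2280, 2030 and 2740 CPM in MDA-MB-231 with bortezomib and AMD3100 and 203, 415 and 419 CPM in HCC1937 with AMD3100, and SMAD6 had 1.26, 0.912 and 1.34 CPM and 35.6, 57.2 and 58 CPM. RRM2 had 1830, 1820 and 1950 CPM in MDA-MB-231 with bortezomib and AMD3100 and 164, 130 and 132 CPM in HCC1937 with AMD3100. These 4 are among 13 genes set side by side. In HCC1937 every AMD3100 library lay above vehicle for SPRY4 (vehicle 0.616, 0.724 and 0.313 CPM). All lay below vehicle for HSPA1A (467, 426 and 461 CPM), OLMALINC and TXNIP. TXNIP had 12.6, 16.5 and 17.3 CPM, against 22.1, 23.5 and 24.1 CPM with vehicle. The TM libraries lay on the same side for each of these. For the rest of the 13 the HCC1937 AMD3100 libraries did not all lie on 1 side of vehicle. For DOK1, ADGRG1, SMAD6 and PLAU replicate 1 lay below every vehicle library and the other replicates lay above. For GPR180 and RRM2 replicate 1 lay above and the other replicates below. The HCC1937 TM libraries lay on the side of those other replicates for all of these but DOK1, which was lower with TM. PLCH2 had 0.332, 0.315 and 0.91 CPM in HCC1937 with AMD3100, against 0.308, 0.419 and 0.157 CPM in its vehicle, and TNC had 0.569, 0.591 and 1.55 CPM, against 0.985, 0.515 and 0.568 CPM, so that replicate 3 lay above every vehicle library for both. HCC1937 AMD3100 replicate 1 stood apart from its group, with 19.899% mitochondrial counts against 10.612% and 10.536% in the others.

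Genes that moved in MDA-MB-231 only. Among the rises were proteasome subunits, cytosolic and ER chaperones, autophagy receptors, antioxidant enzymes and NF-kB genes. DNAJB1, an HSP40 that delivers clients to HSP70, had 3970, 3890 and 3180 CPM in MDA-MB-231 with bortezomib and TM, against 289, 319 and 264 CPM in its vehicle, and 190, 196 and 201 CPM in HCC1937 with TM, against 176, 172 and 175 CPM in its vehicle. The MDA-MB-231 groups stood far apart and those of HCC1937 close together, with log2 changes of 3.66 ± 0.1 and 0.17 ± 0.09 (difference 3.49 ± 0.14, adjusted p = 1.54e-10, edgeR).

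Of 14 core subunits 13 rose in MDA-MB-231 and 3 in HCC1937, with medians of 1.41 and 0.13. Of 19 cap subunits 18 rose in MDA-MB-231 while none rose and 3 fell in HCC1937, with medians of 1.64 and 0.02. Over all genes 23.3% were higher in MDA-MB-231, and 8.38% higher and 8.01% lower in HCC1937. 13 core and 18 cap subunits were higher in the difference (against 18% of all genes), and the MDA-MB-231 medians were still 0.9 and 1.13 with library totals. PSMC4, a cap ATPase whose promoter is shown above with an antioxidant element, had 1700, 1630 and 1390 CPM in MDA-MB-231 with bortezomib and TM, against 238, 277 and 229 CPM in its vehicle, and 168, 164 and 164 CPM in HCC1937 with TM, against 146, 143 and 150 CPM in its vehicle. PSMB5, the chymotrypsin-like subunit that bortezomib binds, had 995, 931 and 701 CPM in MDA-MB-231 with bortezomib and TM, against 330, 360 and 311 CPM in its vehicle, and 177, 183 and 170 CPM in HCC1937 with TM, against 168, 159 and 162 CPM in its vehicle. Both stood apart from vehicle in each line, but the small HCC1937 changes of 0.18 ± 0.09 and 0.11 ± 0.11 were not called. Of 14 assembly and activation factors 4 were higher and 4 lower in MDA-MB-231, near the 23.3% and 23.9% of all genes. POMP, the maturation factor of the core, rose in both lines, by 1.71 and 0.33.

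Over all genes 23.3% were higher and 23.9% lower in MDA-MB-231, and 8.38% higher and 8.01% lower in HCC1937. All 10 cytosolic J-domain genes rose in MDA-MB-231 and 2 in HCC1937, and 9 of 11 chaperonin genes rose in MDA-MB-231 and none in HCC1937. The HSP90 machinery was mixed, with 7 of 10 higher and 3 lower in MDA-MB-231 and none higher and 5 lower in HCC1937, and its genes fell in several classes: 4 higher in MDA-MB-231 only, 3 opposite and 2 lower in both lines. Among 12 small HSP and BAG genes 7 were higher and 1 lower in MDA-MB-231, and HSPB8, a small heat shock protein, rose in both lines, by 4.24 and 1.05. Of 20 ER chaperone and degradation genes 16 rose in MDA-MB-231 and 1 in HCC1937. HSPA5, the ER HSP70 BiP, had 5450, 5940 and 6250 CPM in MDA-MB-231 with bortezomib and TM, against 639, 568 and 694 CPM in its vehicle, and 682, 665 and 674 CPM in HCC1937 with TM, against 663, 680 and 663 CPM in its vehicle. Its HCC1937 groups overlapped, and the difference was 3.2 ± 0.12 (adjusted p = 1.38e-10, edgeR). The ER stress element printed for HSPA5 stood in 6 of the 19 promoters found for the ER list (31.6%) and in 0.0806% of all promoters. HERPUD1, a degradation factor of the ER, rose in both lines, by 3.49 and 0.55.

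SQSTM1, the ubiquitin-binding autophagy receptor p62, had 3700, 3420 and 2780 CPM in MDA-MB-231 with bortezomib and TM, against 264, 328 and 244 CPM in its vehicle, and 198, 214 and 196 CPM in HCC1937 with TM, against 175, 169 and 179 CPM in its vehicle. GABARAPL1, an ATG8 protein of the autophagosome, rose in both lines by very different amounts, with 535, 547 and 481 CPM in MDA-MB-231 with bortezomib and TM, against 4.87, 5.37 and 5.75 CPM in its vehicle, and 160, 155 and 159 CPM in HCC1937 with TM, against 116, 109 and 116 CPM in its vehicle. The groups of both genes were apart in both lines, yet SQSTM1 was not called in HCC1937 (adjusted p = 0.23). 11 of 12 tested autophagy genes rose in MDA-MB-231 (against 23.3% of all genes) and 4 in HCC1937 (against 8.38%).

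NRF2 targets rose for 18 of 20 members in MDA-MB-231 (against 23.3% of all genes) and 5 of 20 in HCC1937 (against 8.38%), with medians of 1.35 and 0.16. HMOX1, which degrades haem, had 96.3, 89.8 and 66.2 CPM in MDA-MB-231 with bortezomib and TM, against 16, 16.2 and 15.5 CPM in its vehicle, and 75.8, 74.5 and 73.8 CPM in HCC1937 with TM, against 45.8, 43.4 and 41.5 CPM in its vehicle. FTL, the ferritin light chain, changed by 2.75 and 0.12 ± 0.1, and AKR1B10, an aldo-keto reductase, rose by 6.8 and 1.38. The AKR1B10 rise in MDA-MB-231 started from a vehicle mean of 0.185 CPM, so its size is poorly fixed. The antioxidant element stood in 339 of 1825 promoters of the genes higher in MDA-MB-231 only (18.6%), in 1423 of 9092 of the genes present in both lines (15.7%) and in 13.6% of all promoters.

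NF-kB subunits and feedback genes rose for 12 of 14 in MDA-MB-231 (against 23.3% of all genes) and 3 of 14 in HCC1937 (against 8.38%). RELB, a subunit of the noncanonical branch, had 75.7, 71.2 and 55 CPM in MDA-MB-231 with bortezomib and TM, against 6.42, 8.42 and 5.99 CPM in its vehicle, and 10, 10.3 and 10.2 CPM in HCC1937 with TM, against 11.1, 10.7 and 12.4 CPM in its vehicle. NFKB2, its partner, changed by 2.19 and -0.06 ± 0.12. Of 13 MHC class I presentation genes 7 were higher and 3 lower in MDA-MB-231 (against 23.3% and 23.9% of all genes), and none higher and 1 lower in HCC1937 (against 8.38% and 8.01%). The falls included NLRC5, a transactivator of class I genes, by 1.65. In HCC1937 HLA-B was at 0.892, 0.97 and 0.181 CPM with TM, against 0.805, 1.14 and 1.03 CPM with vehicle. HLA genes are polymorphic and share reads, and their counts are uncertain for that reason. All 10 cytochrome oxidase subunits and 21 of 22 ribosomal protein genes rose in MDA-MB-231 (against 23.3% of all genes). Their medians of 0.65 and 0.79 became 0.15 and 0.28 with library totals, and ribosomal protein genes have many processed copies.

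Of the genes that ranked first by the difference, BRF2, a subunit of the RNA polymerase III initiation factor, had 183, 170 and 131 CPM in MDA-MB-231 with bortezomib and TM, against 11.6, 13.3 and 9.75 CPM in its vehicle, and 2.79, 3.58 and 4.12 CPM in HCC1937 with TM, against 2.61, 3.19 and 3.02 CPM in its vehicle. SLC16A1, the lactate carrier MCT1, had 0.834, 1.91 and 2.36 CPM in MDA-MB-231 with bortezomib and TM, against 0.0441, 0 and 0.144 CPM in its vehicle, a difference of 4.8 ± 0.56. In HCC1937 SLC16A1 had 159, 148 and 155 CPM with TM, against 156, 168 and 156 CPM with vehicle. At such levels in MDA-MB-231 the fold is poorly fixed.

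Among the falls of MDA-MB-231 only, ITGA6, the integrin alpha-6 chain of the laminin receptor, had 3.15, 5.99 and 7.79 CPM with bortezomib and TM, against 44, 29.2 and 47.3 CPM with vehicle, and 29.8, 30.3 and 29.3 CPM in HCC1937 with TM, against 27.3, 26.8 and 25.9 CPM in its vehicle. EGFR fell by 1.62, with -0.07 ± 0.12 in HCC1937, and AURKA, a mitotic kinase, fell by 1.29, with -0.2 ± 0.1. PDE7B, a cyclic AMP phosphodiesterase, ZBTB12, a zinc finger protein, and FAM78A fell by 3.9, 3.24 and 2.96, and their HCC1937 changes were -0.09 ± 0.25, 0.23 ± 0.23 and 0.09 ± 0.2. Mitotic genes as a list fell in both lines by count, with 12 of 24 lower in MDA-MB-231 (against 23.9% of all genes) and 7 of 24 in HCC1937 (against 8.01%). In the difference 4 were higher and 4 lower, near the 18% and 17.3% of all genes.

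Genes that moved in HCC1937 only. This class had 200 rises (1.71%) and 249 falls (2.13%), and among those named were a cytokine, a receptor tyrosine kinase and surface proteins that rose and mitotic, tyrosine breakdown and immunoproteasome genes that fell. EPHA2, an ephrin receptor kinase, had 983, 871 and 756 CPM in MDA-MB-231 with bortezomib and TM, against 860, 1050 and 780 CPM in its vehicle, and 142, 145 and 143 CPM in HCC1937 with TM, against 48.6, 47.9 and 46.7 CPM in its vehicle. The MDA-MB-231 groups overlapped and the HCC1937 groups were apart (difference -1.63 ± 0.16, adjusted p = 1.38e-06, edgeR). IL11, a cytokine that signals through gp130, had 143, 138 and 117 CPM in MDA-MB-231 with bortezomib and TM, against 112, 113 and 107 CPM in its vehicle, and 3.55, 3.75 and 3.25 CPM in HCC1937 with TM, against 0.847, 0.689 and 0.951 CPM in its vehicle. Its MDA-MB-231 change of 0.26 ± 0.11 just missed the threshold (adjusted p = 0.0541), with no overlap of the groups. The AP-1 element printed for IL11 stood in 11 of 153 promoters of the genes higher in HCC1937 only (7.19%), in 46 of 503 of the genes higher alike (9.15%), in 4.19% of those present in both lines and in 7.76% of all promoters.

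TGM2, a transglutaminase, had 227, 212 and 173 CPM in MDA-MB-231 with bortezomib and TM, against 202, 237 and 179 CPM in its vehicle, and 1.06, 1.18 and 1.5 CPM in HCC1937 with TM, against 0.445, 0.0788 and 0.526 CPM in its vehicle. Its HCC1937 rise of 1.84 thus started from little RNA. PLEKHA6, a junction protein, changed by -0.08 ± 0.18 in MDA-MB-231 and by 1.71 in HCC1937, and COL17A1, a hemidesmosome collagen, by -0.26 ± 0.15 and 1.4.

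HMMR, a mitotic spindle and hyaluronan-binding protein, led the falls, with 4.94, 4.04 and 7.26 CPM in MDA-MB-231 with bortezomib and TM, against 5.84, 3.52 and 4.62 CPM in its vehicle, and 4.33, 5.23 and 4.8 CPM in HCC1937 with TM, against 28, 31.9 and 27 CPM in its vehicle. The HCC1937 groups were far apart and those of MDA-MB-231 overlapped (difference 2.82 ± 0.3, adjusted p = 3.87e-06, edgeR). HES7, a Notch-regulated repressor, fell by 1.69, OARD1, an enzyme that removes ADP-ribose, by 1.37, STAP2, an adaptor of STAT signalling, by 1.23, and ETAA1, an activator of the checkpoint kinase ATR, by 1.17. FAH and GSTZ1, the last enzymes of tyrosine breakdown, fell in HCC1937 by 1.21 and 0.98, with 0.03 and -0.07 in MDA-MB-231. HPD, an earlier enzyme of that path, had 118, 121 and 120 CPM in HCC1937 with TM, against 497, 479 and 504 CPM in its vehicle, and 0.39 CPM or less in every MDA-MB-231 library, so the lines could not be compared for it.

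**Figure D5:**
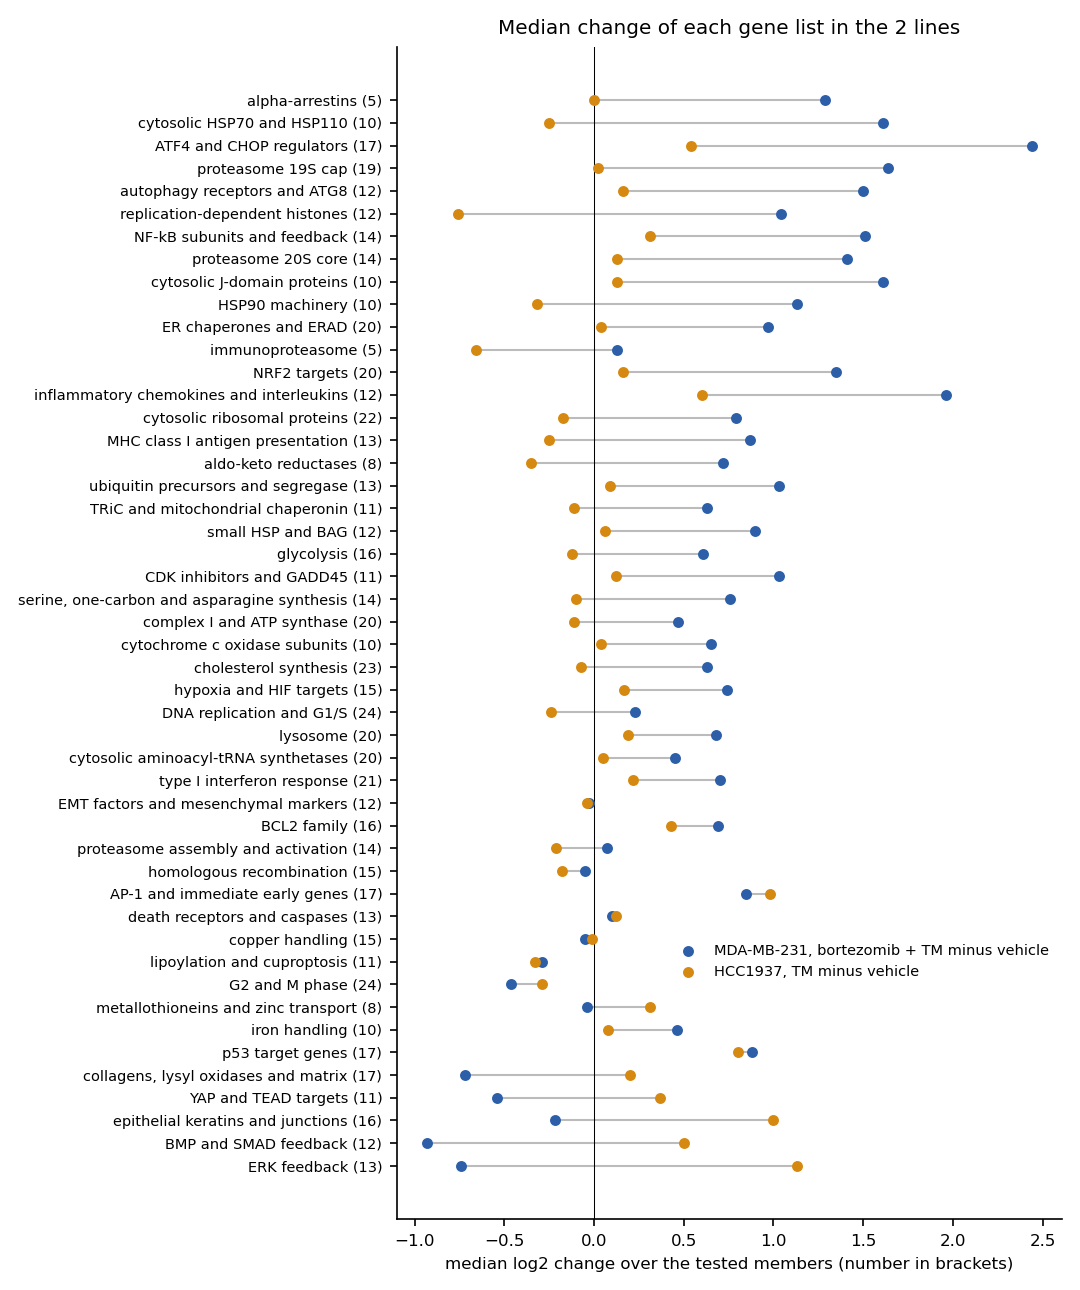
Median log2 change of the tested members of 48 gene lists in MDA-MB-231 (bortezomib and TM minus vehicle) and HCC1937 (TM minus vehicle), ordered by the median difference, with the number of members in brackets. Chaperone, proteasome and ATF4 lists sit near the top with the MDA-MB-231 median far right of HCC1937, p53 and AP-1 medians lie close together, and the feedback lists sit at the bottom with the order turned round.

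Over the 48 lists with at least 5 tested members, 14 had a median above 0 in MDA-MB-231 and below 0 in HCC1937, and 6 had the reverse. The median difference was above 0 for 36 lists, and for 27 with library totals, where 9 lists changed sign. Gene length and level moved with the MDA-MB-231 response, and their part in these results was not tested. With genes in 5 equal bins by summed exon length, the median log2 change in the bin of shortest genes was 0.239 in MDA-MB-231 and -0.013 in HCC1937, and in the bin of longest genes -0.239 and -0.043. With 5 bins by level it was -0.345 and -0.05 in the lowest bin and 0.436 and 0.004 in the highest. Level was the mean over all 4 groups, treated libraries included, so part of that trend may be built in. Genes higher in MDA-MB-231 only had a median length of 4614 bases and those lower in MDA-MB-231 only 6567 bases, against 5449 bases over all genes present in both lines.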

How the data were processed

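Whole-number counts per Ensembl gene were deposited by the authors as 1 table per cell line, and the 12 libraries used here come from the tables of MDA-MB-231 and HCC1937, joined by gene identifier over 78932 features, of which 61481 have a symbol. Per the submitters' processing notes the tools included featureCounts 2.0.1 and MultiQC 1.11 with build GRCh38, and the aligner and annotation are not given in the sources used here. Poly(A) libraries were read as paired 150-base reads, per the labels' protocols. Even numbers made up 56.94% to 62.85% of counts between 1 and 20, so some mates may have been counted singly. Features without a symbol held 0.07% to 0.2092% of counts.

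Genes with low counts were removed with filterByExpr and libraries scaled by TMM in edgeR 4.0.16 (R 4.3.3), and 1 quasi-likelihood model of 4 groups was fitted to all 12 libraries with no covariate. Both within-line changes and their difference were tested with Benjamini-Hochberg adjustment over 20750 genes at 0.05. A standard error (SE) is the size of the log2 value over the root of its F statistic. On simulated data the difference of differences recovered 82% of 50 genes changed 4-fold and 52% of 50 changed 2-fold. It recovered 44% of 50 changed 0.5-fold and 8% of 50 changed 1.5-fold, so small differences were mostly missed. The simulation gave each gene the same dispersion in both lines, although replicates varied more in MDA-MB-231. Depths of 38189932 to 50283398 counts leave genes near 1 CPM least precise.

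Genes named in the text are the first 5 of each of 8 classes, or members of 56 gene lists with the largest called difference. A further 10 were chosen by name. The alike and opposite classes were ranked by the smaller change of the 2 lines, the others by the difference. Class genes had at least 5 CPM in 1 group, and treated and vehicle libraries apart in each line that moved. In the classes of 1 line only, the other line had to change by less than 0.3 on the log2 scale. Members and lists were chosen with earlier results of these data known. Alternatives were median-of-ratios scaling, scaling within each line, no filter, DESeq2 1.42.0, limma-voom (limma 3.58.1), a replicate block, 18 human libraries, each line alone, stricter thresholds and each library left out. Library totals and line weights were added after seeing the data. Promoters came from the RefSeq table on GRCh38.p14, which held 176 of the 231 named genes.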

Additional observations from a re-analysis of the deposited data

Results flagged for a closer look

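The 5 leading genes of each opposite class were picked with all treated libraries beyond all vehicle libraries in both lines, on opposite sides. A called difference in edgeR was part of the definition of the class. Higher in MDA-MB-231 and lower in HCC1937 were H2AC20, with a difference of 5.11 on the log2 scale, TXNIP with 4.02, DOK1 with 2.97, OLMALINC with 2.93 and GPR180 with 2.57. Lower in MDA-MB-231 and higher in HCC1937 were SPRY4, with a difference of -5.83, PLCH2 with -5.43, TNC with -4.66, PLAU with -4.17 and ADGRG1 with -2.9. These genes ranked first by the smaller of their changes, so their size is in part a product of that choice. Their lack of overlap and called difference were required and are not results. Bortezomib and cell line cannot be told apart in any of them.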

How the results depend on the processing

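With all 18 human libraries fitted together, 4674 genes were called in the difference (2424 higher, 2250 lower) and 1318 in HCC1937, and 543 moved alike, 201 in opposite ways and 223 in HCC1937 only. At 2-fold or more, 4444 were called in the difference (1970 higher), 5262 in MDA-MB-231 and 1017 in HCC1937, with 161, 46, 1850 and 88 alike, opposite, MDA-MB-231 only and HCC1937 only. At an adjusted p under 0.01, 2357 were lower in the difference and 1785 called in HCC1937, with 695 alike, 279 opposite and 282 HCC1937 only. Fitting each line alone for the within-line calls gave 8336 calls in HCC1937. With the difference calls kept from the main fit, the 4 classes then held 2640, 1312, 2219 and 910 genes. Line weights gave 7755 calls in HCC1937 with 2295 alike, 1134 opposite and 786 HCC1937 only. With library totals 1607 genes were higher and 6645 lower in the difference. The cause of these moves was not tested, beyond the fewer genes that stricter thresholds admit by construction.

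Leaving out 1 library at a time gave 6342 to 8340 calls in the difference (3196 to 4145 higher, 3146 to 4195 lower), 8814 to 10311 in MDA-MB-231, 2152 to 4937 in HCC1937, and 860 to 1956 alike, 383 to 984 opposite, 3814 to 4136 MDA-MB-231 only and 316 to 573 HCC1937 only. A fit with the replicate number as a block within each line called 7816 genes in the difference, 10166 in MDA-MB-231 and 4025 in HCC1937, with 1676 alike, 804 opposite, 4271 MDA-MB-231 only and 514 HCC1937 only. Whether the numbers pair the libraries remained undecided. Deviations of same-numbered libraries correlated at -0.269, 0.274 and 0.522 in MDA-MB-231 and at 0.039, -0.043 and -0.013 in HCC1937. Among differently numbered MDA-MB-231 libraries the lowest correlation was -0.581 and the highest 0.5. For HCC1937 these limits were -0.042 and 0.053. With 3 libraries per group and no reference distribution, such values cannot settle pairing.

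Of the values of single genes under the alternatives, 11304 kept direction and call, 326 lost the call, 6 gained it and 13 changed sign. The stricter thresholds were not part of this count. Most of these genes were named for called changes in the same libraries, so the number kept is in part a product of that choice. The sign changes under library totals were in MDA-MB-231 PSMD9 (-0.04), PSME2 (-0.0), QARS1 (-0.03), ENO2 (-0.06) and AKR1A1 (-0.06), and in the difference VIM (-0.18), CD14 (-0.36), SLC31A1 (-0.27) and RASD1 (-0.46). Over all single-library omissions the RASD1 difference ran from -0.18 to 0.57 and that of CD14 from -0.12 to 0.41. The RASD1 difference was -0.06 without HCC1937 TM replicate 1, -0.18 without its replicate 3 and -0.08 without HCC1937 vehicle replicate 3, and that of CD14 was -0.12 without MDA-MB-231 bortezomib and TM replicate 2. Depth limits genes near 1 CPM in a line, such as PLCH2, TGM2 and RASD1 in HCC1937.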

Other observations

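Of 23 tested cholesterol synthesis genes 15 were higher and 2 lower in MDA-MB-231 with bortezomib and TM, and none higher and 5 lower in HCC1937 with TM, with median log2 changes of 0.63 and -0.07. Over all genes 23.3% were higher and 23.9% lower in MDA-MB-231, and 8.38% higher and 8.01% lower in HCC1937. Of 16 glycolysis genes 12 were higher and 3 lower in MDA-MB-231, and none higher and 5 lower in HCC1937, with medians of 0.61 and -0.12. Epithelial keratin and junction genes had 5 of 16 higher and 4 lower in MDA-MB-231, near the shares of all genes, and 7 higher and 1 lower in HCC1937, with medians of -0.22 and 1.0. With library totals the MDA-MB-231 medians of the 3 lists became 0.12, 0.1 and -0.73. A sum over 6 leukocyte markers ran from 1.07 to 2.23 CPM in MDA-MB-231 with bortezomib and TM, against 0.32 to 0.599 CPM in its vehicle, and from 3.99 to 4.76 CPM in HCC1937 with TM, against 1.46 to 2.19 CPM in its vehicle. CD14 made up most of it.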
